A study of Homo sapiens with 8 samples.

Results

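Knockdown of EI24 in ZR-75-1 breast cancer cells did not move the genes of desmosome proteins in a common direction. Of the 10 genes, DSG2 and PKP2 rose in both ZR-shEI24 clones against cells with a control shRNA, and PKP4 and PKP3 fell in both. DSP fell in the mean of the clones and in clone 1, but did not pass in clone 2. DSC2, PERP, DSC3, DSG3 and PKP1 did not pass the test in the mean of the clones, and DSC2 was lower in clone 1 alone. The 10 were taken by symbol from the array's gene annotation, as structural proteins of the desmosome, and all 10 had a value among the 18417 genes measured. Each had 1 transcript cluster, the set of probes that the array reads for a gene.

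ZR-75-1 cells are human breast cancer cells of the luminal type that carry the estrogen receptor, and the labels state that its cultures received no chemical. Total RNA of untreated parental cells, of cells with an shRNA against GFP (shGFP, the control for carrying an shRNA), and of 2 lines with an shRNA against EI24 was measured on Affymetrix arrays, in duplicate for each line and 8 arrays together. The series design calls the 2 ZR-shEI24 lines independent clones, so each line is 1 clone, and the first number of its label was taken as the clone. Whether the duplicate arrays of a line stem from separate cultures is not stated in the sources used, so the p-values reflect how far duplicate arrays scatter, and that scatter may be technical. Values are log2 intensities, in which a difference of 1 is 2-fold, and they compare a gene between lines, not one gene with another. In bulk RNA, fewer cells that express a gene and less RNA per cell cannot be told apart.

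Desmosomes are buttons that rivet neighboring epithelial cells together. Desmogleins (DSG) and desmocollins (DSC), the desmosomal cadherins, cross the membrane and bind each other between cells. On the inside, plakoglobin (JUP) and the plakophilins (PKP) link their tails to desmoplakin (DSP), which holds the keratin filaments, and PERP is a membrane protein of the junction that p53 and p63 induce. DSG2, DSC2, PKP2 and DSP make the desmosomes of simple epithelia and heart, while DSG3, DSC3 and PKP1 belong mainly to stratified and basal epithelia.

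The knockdown was present in each shEI24 array: EI24 had a log2 value of 8.43 to 9.25 in the clones and 11.91 to 12.09 in the controls. The luminal identity of the line was visible in the control lines, where the mean log2 value of 7 luminal markers was 12.26 to 12.40 per array, and it was lower in the clones, at 9.11 to 9.57, with 7 of 7 lower at an adjusted p under 0.05 from limma. Of 5 fibroblast markers 0 passed the test against shGFP, and their mean value per array was 6.02 to 6.12 in the controls and 6.09 to 6.28 in the clones. Of 3 immune markers CD68, a lysosomal protein of macrophages, and PTPRC were higher, by log2 fold changes of 3.95 and 0.21, and the mean of the 3 was 6.02 to 6.23 in the controls and 7.49 to 7.56 in the clones. PTPRC, the marker that defines leukocytes, had a mean log2 value of 4.21 to 4.47 in every line. It did not pass in clone 1 alone (adjusted p = 0.16) or against parental cells (adjusted p = 0.19, both from limma). Of 2 endothelial markers PECAM1 was higher, by 0.52 (mean of the 2 5.61 to 5.89 in the controls and 5.87 to 6.22 in the clones). In clone 2 alone PECAM1 did not pass (adjusted p = 0.060 from limma). Of 4 basal markers KRT14 was higher, by 0.72 (mean of the 4 6.42 to 6.67 and 6.60 to 6.95). In clone 1 alone KRT14 did not pass (adjusted p = 0.14 from limma). The part of these markers in the values below was not tested. The median log2 fold change of all genes was 0.08.

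The start regions of 3 of the genes are shown because they hold the CACCTG E-box, the site bound by ZEB and SNAI repressors, of which SNAI2, ZEB1 and ZEB2 rose in these cells, as described with the transcription regulators. They are the 250 bases before the annotated start in RefSeq, build GRCh38.p14, 5′ to 3′ on the strand of the gene, with each CACCTG or its reverse complement CAGGTG in capitals.
DSG2, chr18:31497927-31498176, plus strand: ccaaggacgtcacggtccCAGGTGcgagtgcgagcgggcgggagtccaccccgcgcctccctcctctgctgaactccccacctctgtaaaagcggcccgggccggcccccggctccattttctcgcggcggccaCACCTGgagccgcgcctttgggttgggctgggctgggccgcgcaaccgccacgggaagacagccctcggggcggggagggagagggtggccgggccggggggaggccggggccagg
DSP, chr6:7541421-7541670, plus strand: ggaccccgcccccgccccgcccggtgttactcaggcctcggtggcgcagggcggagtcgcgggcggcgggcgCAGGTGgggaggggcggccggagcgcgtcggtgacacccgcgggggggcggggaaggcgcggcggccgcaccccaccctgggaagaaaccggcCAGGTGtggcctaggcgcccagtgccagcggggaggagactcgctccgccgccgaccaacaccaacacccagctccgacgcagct
DSC2, chr18:31102422-31102671, minus strand: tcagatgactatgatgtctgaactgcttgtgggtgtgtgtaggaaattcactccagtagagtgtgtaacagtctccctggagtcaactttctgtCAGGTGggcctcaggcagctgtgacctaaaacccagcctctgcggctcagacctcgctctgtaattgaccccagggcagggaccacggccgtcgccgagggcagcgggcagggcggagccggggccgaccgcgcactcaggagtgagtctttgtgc
The RefSeq table had windows of 300 bases for 8 of the 10 genes, 10 windows in all, and 3 of the 10 windows held the motif, beside 20.6% of all 35116 windows. In DSP it began at -178 and -85 from the start, in DSG2 at -232 and -116, and in the window at the more distant start of DSC2 at -156. DSG2 rose and DSP fell in the mean of the clones. JUP, the plakoglobin gene and not one of the 10, also held 2 sites in 1 of its 2 windows, at -54 and -43, and it fell. Binding at these sites and their part in the changes were not tested. The windows of DSC3, DSG3, PKP1, PKP4 and PERP held no CACCTG, which says only that these letters are not in these bases. PERP held 1 AP-1 motif, TGANTCA, found in 7.71% of all windows. The GRHL motif AACNGGTT was in none of the 10 windows and in 1.73% of all.

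Among the desmosomal cadherins, DSG2 rose in both clones. DSG2 (transcript cluster 8020779), the desmoglein of simple epithelia, had log2 values of 10.38 and 10.24 in parental cells, 10.00 and 9.98 in shGFP, 11.28 and 11.14 in clone 1, and 11.18 and 11.06 in clone 2. All 4 shEI24 arrays lay above all 4 control arrays. The rise against shGFP was 1.18 ± 0.08 on the log2 scale (± standard error, limma adjusted p = 3.1e-06), or 2.26-fold. The clones were close to each other, with a difference of 0.09 (95% confidence interval -0.13 to 0.31). Against parental cells the rise was 0.85 (adjusted p = 2.4e-05 from limma), and shGFP minus parental was -0.32, which did not pass (adjusted p = 0.071 from limma) but did with the replicate number as a block (adjusted p = 0.020).

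DSC2 (8022711), the desmocollin partner of DSG2, lay on opposite sides of shGFP in the clones, and only clone 1 passed against shGFP in the main test. Its log2 values were 9.21 and 9.17 in parental cells, 8.90 and 8.89 in shGFP, 8.44 and 8.29 in clone 1, and 9.26 and 9.05 in clone 2. Clone 1 was below every other array, whereas the arrays of clone 2 lay above shGFP and overlapped the parental ones. The mean of the clones thus differed from shGFP by only -0.14 (95% confidence interval -0.34 to 0.06, adjusted p = 0.21 from limma). Clone 1 alone was lower by -0.53 (adjusted p = 0.0019), clone 2 alone gave 0.26 (adjusted p = 0.059, and 0.021 with the replicate block), and the difference between the clones was -0.79 (adjusted p = 0.0015, all from limma). With parental cells as the control the mean of the clones was lower by -0.43 (adjusted p = 0.0025 from limma).

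DSG3 and DSC3, the cadherins of stratified epithelia, had low intensities and did not pass in the mean or in either clone. DSG3 lay between 5.40 and 5.91 over the 8 arrays, with a log2 fold change of 0.15 (95% confidence interval -0.18 to 0.47). DSC3 lay between 4.64 and 4.87, with 0.02 (95% confidence interval -0.19 to 0.22).

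**Figure D1:**
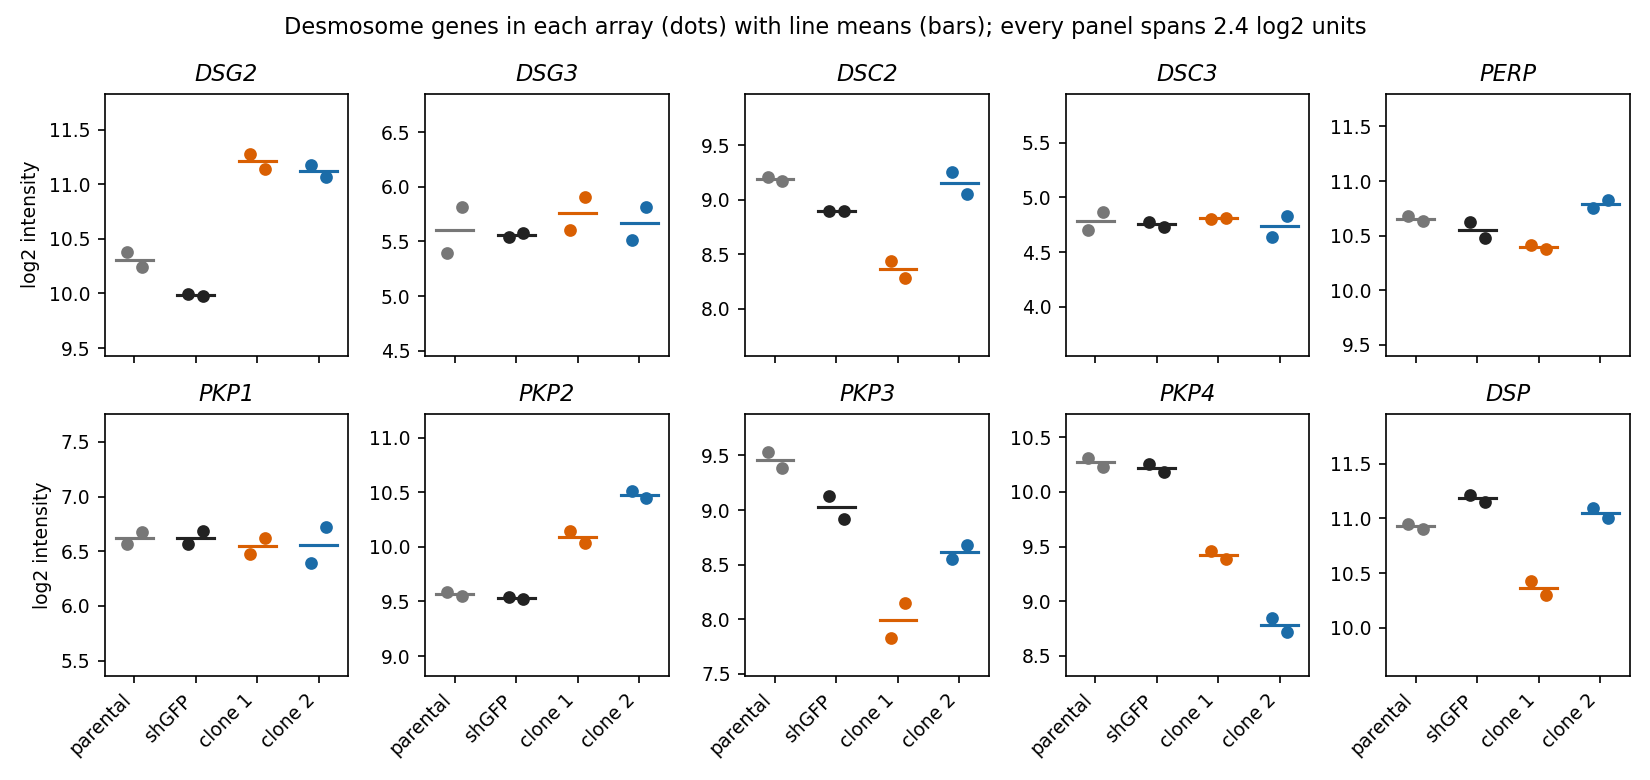
Log2 intensity of the 10 desmosome genes in parental, shGFP, shEI24 clone 1 and shEI24 clone 2 cells, on axes of equal length. Dots are arrays and bars are means of 2 arrays: DSG2 and PKP2 are higher in both clones, PKP3 and PKP4 are lower in both, and DSP, DSC2 and PERP are lower in clone 1 than in clone 2.

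The desmosomal cadherin genes are neighbors on chromosome 18, so their values could be read along the cluster. In GRCh38.p14 the protein-coding order is CDH2, DSC3, DSC2, DSC1, DSG1, DSG4, DSG3, DSG2, TTR and B4GALT6. Within the cluster, DSC1 (a log2 fold change of 0.14), DSG1 (0.06) and DSG4 (0.02), whose proteins serve skin and hair, did not pass, and their means in shGFP and in each clone lay between 4.89 and 5.73. DSG2, at one end, was the only gene of the 7 called in the mean of the clones against shGFP, and DSC2 was called in clone 1 alone, as given above. On its far side TTR, the transthyretin gene, gave 0.17 (adjusted p = 0.26 from limma), while B4GALT6, a galactosyltransferase gene of glycolipid synthesis, rose by 2.38 (adjusted p = 1.2e-06 from limma). CDH2, the N-cadherin gene at the other end, rose by 0.33 (adjusted p = 0.011 from limma). Its values were low in every line, at 5.63 to 5.87 in the control arrays and 6.08 to 6.35 in the clones.

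**Figure D2:**
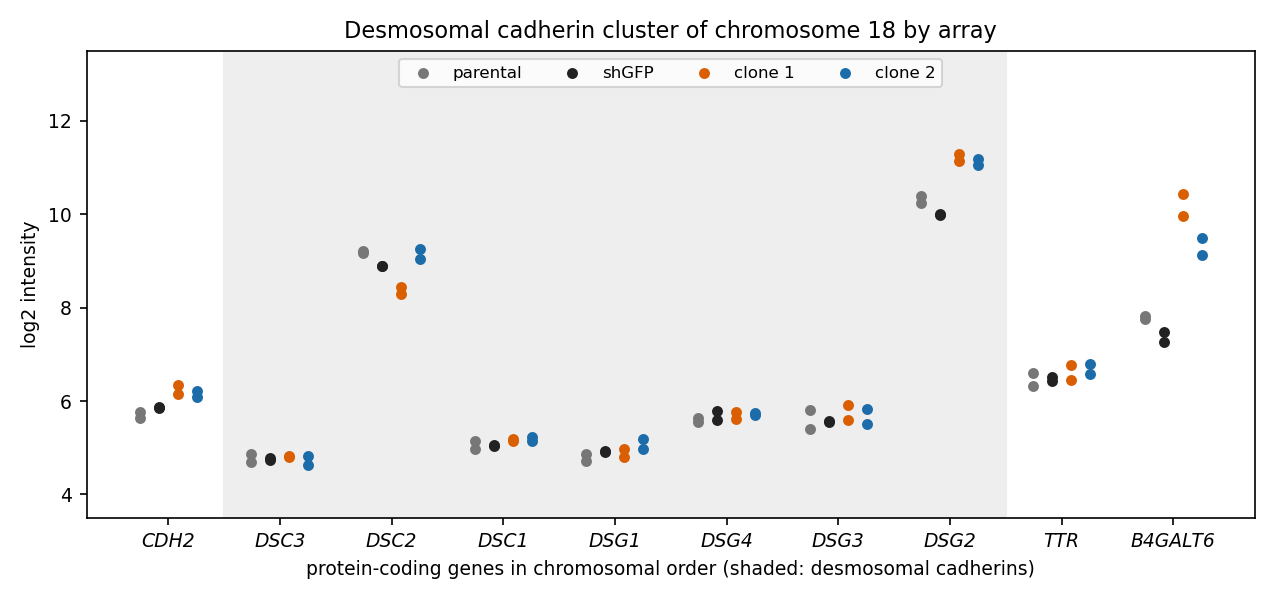
Log2 intensity of each array (dots, colored by line) for the protein-coding genes around the desmosomal cadherins, in chromosomal order with the cluster shaded. DSG2 is higher in both clones than in the controls, with a log2 fold change of 1.18 against shGFP, DSC2 is low in clone 1 only, and the other 5 genes of the cluster stay dim in all lines.

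The plakophilins, armadillo-repeat proteins of the inner plaque, split in both directions. PKP4 (8045860), also called p0071, a relative of p120-catenin found at both desmosomes and adherens junctions, had log2 values of 10.31 and 10.23 in parental cells, 10.25 and 10.18 in shGFP, 9.46 and 9.38 in clone 1, and 8.85 and 8.72 in clone 2. Every shEI24 array lay below every control array, and clone 2 was the lower clone. Relative to shGFP the clones changed by -1.12 ± 0.08 (log2 ± standard error, limma adjusted p = 3.0e-06), a 2.17-fold fall. The value of clone 1 minus clone 2 was 0.64 (limma adjusted p = 0.0025), so PKP4 was the one gene of the 10 called higher in clone 1 than in clone 2.

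PKP3 (7937363), a plakophilin of most epithelia, fell less evenly. It had 9.54 and 9.39 in parental cells, 9.13 and 8.92 in shGFP, 7.83 and 8.15 in clone 1, and 8.55 and 8.68 in clone 2. The clones again lay below all controls, with clone 1 lowest. Relative to shGFP the clones changed by -0.72 ± 0.11 (log2 ± standard error, limma adjusted p = 0.00051), and relative to parental cells by -1.16. Clone 1 was lower than clone 2 by -0.63 (adjusted p = 0.014 from limma), a call that ended without clone 1 replicate 1 (adjusted p = 0.069) or clone 2 replicate 2 (adjusted p = 0.072). The fall itself did not pass with each line counted as 1 replicate and the controls pooled (adjusted p = 0.055) or with the methods' t-test after adjustment over all genes (adjusted p = 0.14).

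PKP2 (7962212), the plakophilin of simple epithelia and heart, was the one plakophilin that rose. Its log2 values were 9.59 and 9.55 in parental cells, 9.54 and 9.53 in shGFP, 10.15 and 10.03 in clone 1, and 10.51 and 10.45 in clone 2. All 4 control arrays lay close together, below all shEI24 arrays. The rise against shGFP was 0.75 ± 0.07 (log2 ± standard error, limma adjusted p = 2.6e-05), or 1.68-fold. Clone 2 rose more than clone 1, a difference of -0.39 for clone 1 minus clone 2 (adjusted p = 0.017 from limma), which did not pass without clone 1 replicate 2 (0.070), clone 2 replicate 1 (0.089) or clone 2 replicate 2 (0.053). PKP1, the plakophilin of the upper epidermis, lay between 6.39 and 6.72 in all arrays, with a log2 fold change of -0.07 (95% confidence interval -0.32 to 0.17, adjusted p = 0.59 from limma). Its value became -0.26 after a second quantile normalization (adjusted p = 0.017 from limma).

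DSP (8116780), the desmoplakin that ties the plaque to keratin filaments, was lower in clone 1 and near the controls in clone 2. It had 10.94 and 10.91 in parental cells, 11.22 and 11.15 in shGFP, 10.43 and 10.30 in clone 1, and 11.10 and 11.01 in clone 2. Clone 2 thus lay between parental cells and shGFP. The mean of the clones was lower than shGFP, at -0.48 ± 0.08 (log2 ± standard error, limma adjusted p = 0.00065), to which clone 1 gave -0.82 (adjusted p = 6.2e-05) and clone 2 gave -0.13 (adjusted p = 0.24). The difference between the clones was -0.69 (adjusted p = 0.0016 from limma). Against parental cells the mean was lower by only -0.22 (adjusted p = 0.040 from limma), and shGFP exceeded parental cells by 0.26 (adjusted p = 0.11, and 0.035 with the replicate block). When lines were counted as single replicates with the controls pooled, DSP did not pass (adjusted p = 0.34), nor with the methods' t-test (adjusted p = 0.28).

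PERP (8129880), the membrane protein of the junction that is needed for desmosome assembly in stratified epithelia, hardly differed from shGFP on average. Its log2 values were 10.68 and 10.63 in parental cells, 10.62 and 10.48 in shGFP, 10.42 and 10.37 in clone 1, and 10.75 and 10.83 in clone 2. Clone 1 lay below and clone 2 above all control arrays. The mean of the clones gave 0.04 (95% confidence interval -0.14 to 0.22, adjusted p = 0.68 from limma), clone 1 alone -0.16 (adjusted p = 0.19) and clone 2 alone 0.24 (adjusted p = 0.053, and 0.028 with the replicate block). Clone 1 was lower than clone 2 by -0.39 (adjusted p = 0.020 from limma), which did not pass without clone 1 replicate 1 (0.055), clone 1 replicate 2 (0.071), clone 2 replicate 1 (0.055) or clone 2 replicate 2 (0.10).

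Counted together, desmosome genes were called against shGFP about as often as any gene. In the mean of the clones 2 of the 10 were higher, beside 26.8% of all genes, and 3 were lower, beside 29%. Of the 10, 2 had all shEI24 arrays above all control arrays, beside 23.8% of all genes, and 2 had them all below, beside 26.9%. Clone 1 alone had 2 higher (23% of all genes) and 4 lower (26.6%), and clone 2 alone 2 higher (25.2%) and 2 lower (27.8%). These contrasts share the shGFP arrays. The median log2 fold change of the 10 was -0.03.

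Between the clones 6 of the 10 genes differed. In clone 1 against clone 2, 5 of the 10 (DSP, DSC2, PKP2, PKP3 and PERP) were lower, beside 5.88% of all genes, and 1 (PKP4) was higher, beside 9.29%. Without 1 of the 4 shEI24 arrays the count lower was 2 or 3. Clone 1 also held less EI24 mRNA than clone 2, by a log2 difference of -0.68 (adjusted p = 0.0023 from limma). The part of EI24 in these differences was not tested. In shGFP against parental cells 0 of the 10 were higher (3.21% of all genes) and 0 lower (7.44%) by limma, while at an unadjusted p under 0.05 DSP was higher (1 of the 10, beside 8.53% of all genes) and DSC2, DSG2 and PKP3 were lower (3 of the 10, beside 16%). With the replicate block 1 was higher (6.49% of all genes) and 2 were lower (12.2%).

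**Figure D3:**
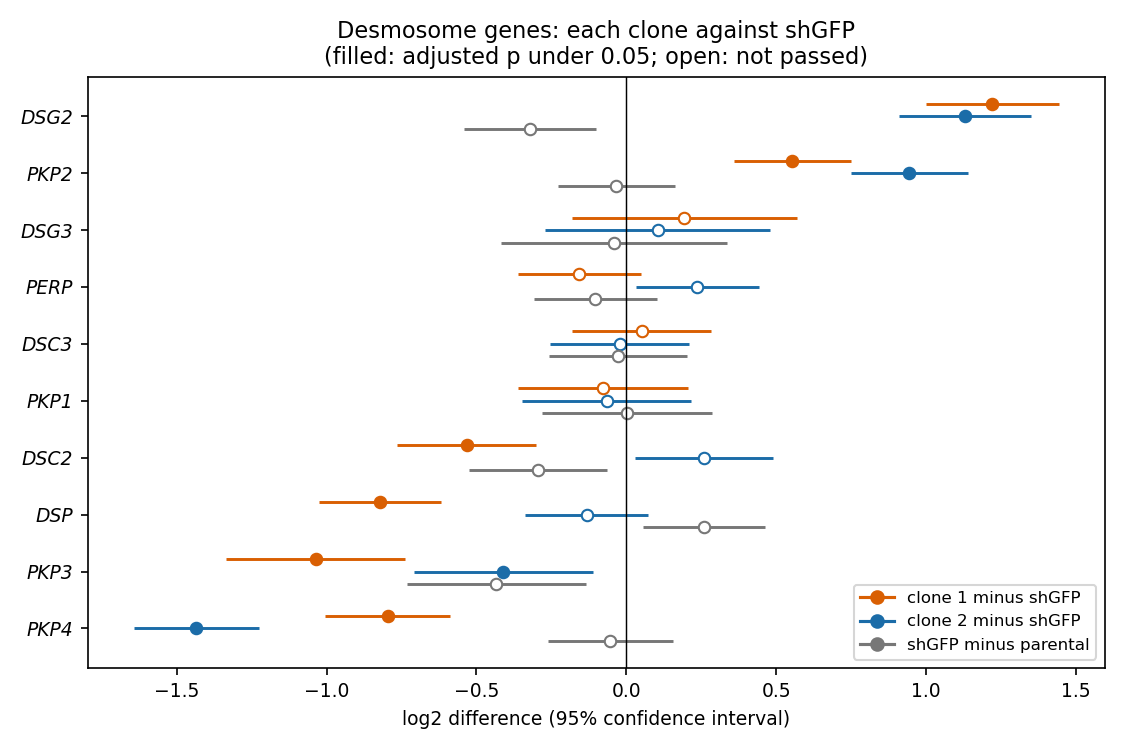
Log2 difference of shEI24 clone 1 and of clone 2 from shGFP, and of shGFP from parental cells, for the 10 desmosome genes, with 95% confidence intervals from limma. Filled dots passed at an adjusted p under 0.05: DSG2 and PKP2 are to the right of 0 and PKP3 and PKP4 to the left in both clones, while DSP and DSC2 are filled in clone 1 only.

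Of 7 other structural genes of the desmosome, JUP and PPL fell and 5 did not pass. JUP, the plakoglobin gene, had 11.46 and 11.41 in parental cells, 11.27 and 11.18 in shGFP, 9.20 and 9.10 in clone 1, and 10.41 and 10.31 in clone 2. It fell in both clones and further in clone 1, with log2 fold changes of -2.08 and -0.87 against shGFP and a difference of -1.21 (adjusted p = 0.00011 from limma). With the methods' t-test the fall of JUP did not pass (adjusted p = 0.10). PPL, the periplakin gene, was lower by -1.08 (adjusted p = 9.4e-05 from limma), with nearly the same value in each clone, and it was also lower in shGFP than in parental cells, by -0.69 (adjusted p = 0.022). CDSN, the corneodesmosin gene, gave 0.17 and EVPL, the envoplakin gene, -0.16, and neither passed. The median of these 7 was 0.02.

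Among intermediate filament genes, KRT8, KRT18, KRT19 and KRT80 fell while VIM, DES, KRT7, KRT14, KRT15 and KRT16 rose. Thus of 13 measured of 18 listed, 6 rose, 4 fell and 3 (KRT5, KRT20 and KRT23) did not pass. In clone 1 alone 3 were higher (VIM, KRT7 and KRT15), while KRT14, KRT16 and DES did not pass there. KRT8, KRT19 and KRT18, the keratins of simple luminal epithelium, had log2 fold changes of -1.63, -1.55 and -1.38, and KRT80 of -1.62. KRT8 and KRT18 have many near-identical copies in the genome, so their probes may read more than 1 locus. KRT19 fell mostly in clone 1, which was below clone 2 by -2.24 (adjusted p = 6.5e-06 from limma). KRT7, also a keratin of simple epithelium, rose by 1.87, and VIM by 6.20. The other rises were smaller, at 0.99 for KRT15, 0.72 for KRT14, 0.35 for DES and 0.34 for KRT16. Against parental cells DES gave 0.24 and did not pass (adjusted p = 0.092 from limma). KRT5, KRT20 and KRT23 did pass there, at 0.24, 0.25 and 0.36 (adjusted p = 0.041, 0.034 and 0.022 from limma). With that control 8 of the 13 were higher and 4 lower. The median of the list was 0.22.

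The measured genes listed as plakins or as parts of the hemidesmosome, which anchors keratin to the matrix, rose in the mean of the clones. All 5 measured of 6 listed were higher than in shGFP: ITGA6 by 4.61, the plakins PLEC and MACF1 by 1.85 and 1.67, the plakin DST by 2.82-fold, and ITGB4, the integrin partner of ITGA6, by 0.50 in the mean. ITGB4 went opposite ways in the clones, with -0.55 in clone 1 (adjusted p = 0.00099) and 1.55 in clone 2 (adjusted p = 1.3e-06, both from limma). The median of these 5 was 1.67. PPL and EVPL, plakins counted above with the other desmosome genes, gave -1.08 and -0.16, so the rise did not extend to every relative of desmoplakin. Of 3 measured armadillo relatives of the plakophilins, CTNND2 was lower by -0.69, but gave -0.14 against parental cells (adjusted p = 0.18 from limma). ARVCF gave -0.20 and CTNNB1, the β-catenin gene, 0.07, and neither passed in the mean. CTNNB1 was higher in clone 1, by 0.32 (adjusted p = 0.016), and gave -0.17 in clone 2 (adjusted p = 0.14), and the clones differed by 0.50 (adjusted p = 0.0077, all from limma). The median of the 3 was -0.20.

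Transcription regulators of epithelial junctions moved both ways, over a range from -5.57 to 5.37. Of 14 measured of 17 listed, 6 rose, 6 fell and 2 did not pass, with a median of 0.01. GRHL2 and GRHL1, grainyhead factors that activate junction genes, had log2 fold changes of -5.57 and -2.60, and the epithelial factor ELF3 of -2.21. SNAI2 and ZEB1, repressors that bind the E-box, rose by 5.37 and 4.51, and ZEB2 by 2.19, while SNAI1 gave 0.10 and did not pass. KLF4, a factor of stratified epithelia, rose by 2.61. The epithelial factors KLF5 and EHF also rose, by 1.55 and 1.09, so not every epithelial factor of the list fell. EHF gave 1.78 in clone 1 and 0.40 in clone 2. Of 6 genes that act on desmosomal proteins, 4 rose and 2 did not pass, with a median of 0.61. EGFR, whose signaling loosens desmosomes, rose by 5.02, and PRKCA, the protein kinase Cα that makes them less adhesive, by 3.12 and more in clone 1 than in clone 2 (difference 1.24, adjusted p = 0.00019 from limma). The sheddases ADAM10 and ADAM17 rose by 0.67 and 0.54.

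**Figure D4:**
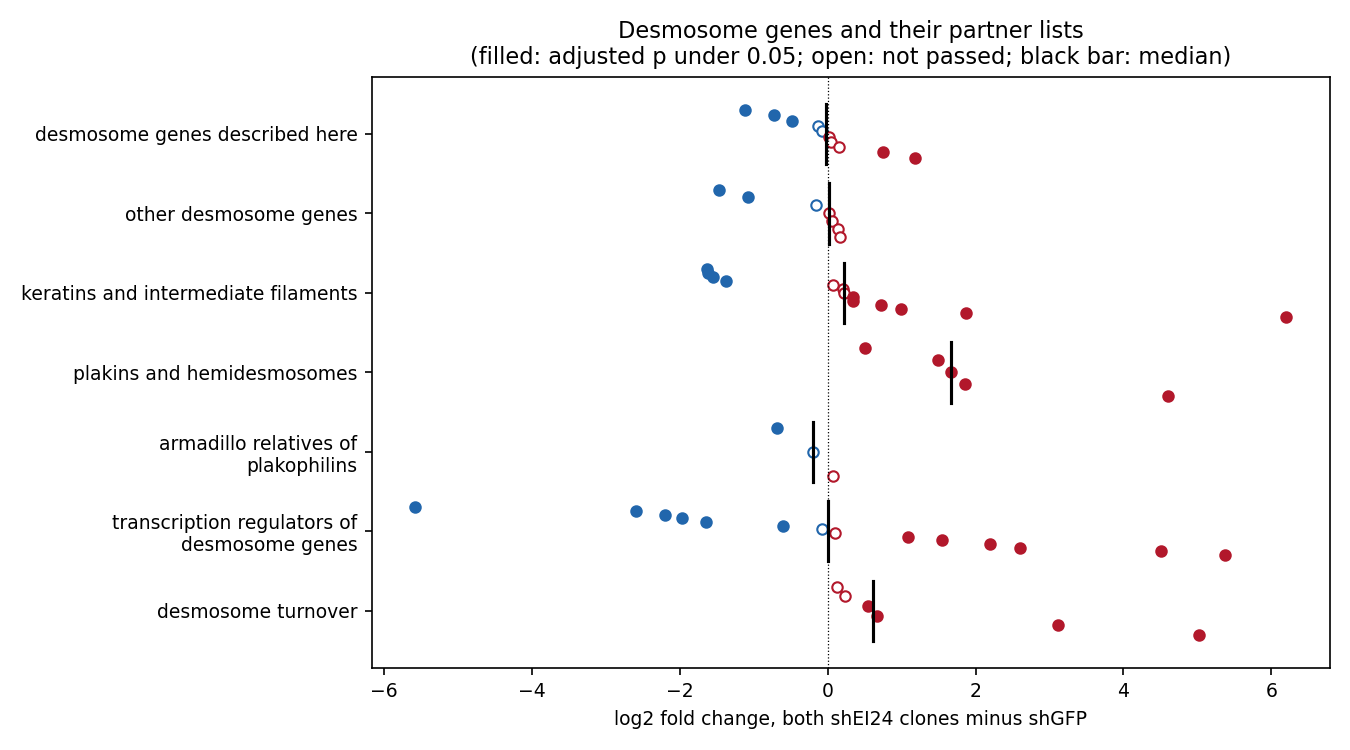
Log2 fold change of both shEI24 clones against shGFP for the 10 desmosome genes and 6 partner lists. Dots stand for single genes, and those that passed at an adjusted p under 0.05 are filled (red, higher; blue, lower) while the rest are open. Black bars give medians: -0.03 for the 10 desmosome genes, 0.22 for intermediate filaments and 1.67 for plakins and hemidesmosomes.

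The genes whose profiles over the 8 arrays lay closest to DSG2 were STARD3NL, RAP1GDS1 and ARHGAP21, at root mean square distances of 0.037, 0.043 and 0.052 log2 units after each gene was centered on its own mean. For PKP4 they were JAGN1, E2F8 and TRIM16, at 0.032, 0.045 and 0.048. These are likenesses of level only, over arrays of 4 lines.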

How the data were processed

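The authors deposited log2 intensities, 1 per transcript cluster and array, for 8 Affymetrix arrays. GCOS and RMA are the tools in the submitters' processing notes, without versions. As RMA removes background and makes the arrays' distributions equal before probes are summarized, a shift in the RNA content of cells cannot be seen and differences between low values are understated. Array medians were 7.28 to 7.39, and the number of arrays limits the precision. Of 33297 clusters 19460 had 1 symbol in GEO's platform annotation. The brightest cluster per gene was kept, which left 18417 genes. Differences came from limma 3.58.1 in R 4.3.3 with a mean for each of 4 lines (4 residual degrees of freedom). The Benjamini-Hochberg adjustment covered all genes, calls were made under 0.05, and the fit was tested on simulated data. Those data held no difference between the clones and no shared deviation of arrays with the same replicate number, so the test does not cover either. The members and lists were chosen with earlier results of these data known. Each member is named, with up to 6 genes of each list by size of change. The other intermediate filament genes, ZEB2, SNAI1, KLF5, EHF, B4GALT6, TTR, CDH2 and the remaining cadherins were added outside that rule. Some listed genes were not analysed here. Same-numbered arrays deviated together: replicate 1 deviations from the line means correlated over genes at 0.25 to 0.59 between each pair of lines, so the replicate number was also fitted as a block. Sequences are from RefSeq's table for GRCh38.p14, in which positions count from the annotated start. Alternatives were other controls, normalizations, filters, fits and thresholds, and each array left out in turn.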

Additional observations from a re-analysis of the deposited data

Results flagged for a closer look

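The clones of the EI24 knockdown differed from each other in 6 of the 10 desmosome genes, by a test of the difference between the clones (limma, adjusted over all genes), 5 lower in clone 1 beside 5.88% of all genes and 1 higher beside 9.29%. The log2 difference of clone 1 minus clone 2 was -0.79 for DSC2, -0.69 for DSP, -0.63 for PKP3, -0.39 for PERP and -0.39 for PKP2, and 0.64 for PKP4, and each had the same sign within the arrays numbered 1 and within those numbered 2. For DSC2 and PERP the clones lay on opposite sides of shGFP. For PKP2, PKP3 and PKP4 both clones lay on the same side and differed in size. Among these, DSC2, DSP and PKP4 passed without each array in turn.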

How the results depend on the processing

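DSG2 and PKP4 kept their direction and their call against shGFP under each alternative run, PKP2 under each but the 2-fold threshold. The count of desmosome genes higher against shGFP was 1 at the 2-fold threshold and otherwise 2. The count lower was 1 at that threshold, with each line as 1 replicate and with the methods' t-test, and 4 with parental cells or pooled controls (with DSC2) and after a second quantile normalization (with PKP1). Without each array in turn the counts were 2 and 3, and between the clones 1 higher and 2 to 5 lower. In shGFP against parental cells the count lower was 0 to 1 without each array in turn, 1 being PKP3 without either clone 1 array. With the replicate block, shGFP against parental cells gave 1 higher and 2 lower, and the block otherwise changed, among the desmosome genes, only the calls of DSC2 and PERP in clone 2. Intermediate filaments then had 7 higher and desmosome turnover 5. Of the lists, intermediate filaments had 3 higher with each line as 1 replicate and with the t-test and 2 higher at 2-fold, and 2 lower with each line as 1 replicate and with the t-test. Armadillo relatives had 0 lower with parental cells as the control, with each line as 1 replicate and at 2-fold. Desmosome turnover had 2 higher at 2-fold, and other desmosome genes 1 higher and 1 lower with the t-test. Only genes that did not pass changed sign. DSC3 gave -0.013 against parental cells, -0.097 after a second quantile normalization and -0.030 after centering, and DSG3 gave -0.0083 after quantile normalization. PERP gave -0.064 against parental cells, -0.012 against pooled controls, with or without lines as replicates, and -0.0055 after centering. Without each array in turn, the mean against shGFP ranged over -0.034 to 0.064 for DSC3, -0.031 to 0.11 for PERP and -0.15 to 0.011 for PKP1. The clone difference ranged over -0.025 to 0.17 for DSC3, -0.065 to 0.24 for DSG3 and -0.18 to 0.15 for PKP1, and shGFP minus parental over -0.11 to 0.056, -0.25 to 0.17 and -0.056 to 0.061. The causes were not tested. Over all 18417 genes, 4941 were higher and 5348 lower against shGFP, and 2743 and 3423 with each line as 1 replicate, 3203 and 3727 with the t-test and 1600 and 1672 at 2-fold. With parental cells as the control 4621 were higher and 5672 lower. Pooled controls gave 5560 and 5886, and a second quantile normalization 4559 and 5695. Between the clones 1711 were higher and 1083 lower, and 2391 and 1788 with the block, 1943 and 1698 after quantile normalization, and 970 to 1531 and 466 to 946 without each array in turn. In shGFP against parental cells 592 were higher and 1370 lower, and 1196 and 2240 with the block and 138 to 758 and 242 to 1461 without each array. DSC3 and DSG3 gave no value when the dimmest 25% of genes were left out.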
